A study of Mus musculus with 8 samples.

Results

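Colonic epithelium keeps microbes at a distance with a set of secreted and surface-bound products, and 10 genes of that set were followed here. They are the lysozymes Lyz1 and Lyz2, the phospholipase Pla2g2a, the matrix metalloproteinase Mmp7, the ribonuclease Ang4, the lectins Reg3b, Reg3g and Reg4, the flagellum-binding surface protein Lypd8 and the siderophore-binding protein Lcn2. They were taken by name, as a list drawn up with earlier results of these data known, and make up 10 of the 35963 gene symbols in the count table. RNA came from proximal colon epithelium of mice aged 4 weeks, released from the tissue with a buffer, in 8 libraries. In the 4 libraries labelled Ccna2-KO, both copies of Ccna2 were floxed (flanked by Cre target sites), and the mice also carried vil-Cre, a recombinase transgene under the villin promoter that works in the epithelium of the gut and not in immune or stromal cells. The 4 control libraries were of Ccna2 fl/fl mice without Cre, labelled wild type by genotype. Ccna2 encodes cyclin A2, a kinase partner needed during DNA replication and for mitosis. The labels do not say whether each library is a separate mouse, and p-values thus measure the spread among these libraries.

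In the small intestine, Paneth cells at the crypt base store lysozyme, Pla2g2a, angiogenins, lectins and alpha-defensins in granules, and in the mouse the protease Mmp7 cuts the alpha-defensin precursors into their active form. The normal mouse colon has no Paneth cells. Its crypt base instead holds deep crypt secretory cells, which are marked by Reg4 and Kit, while surface colonocytes make Lypd8, and Reg3b, Reg3g and Lcn2 are induced by microbes and by cytokines such as interleukin 22.

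Each library held between 27162083 and 34386731 estimated counts. Ccna2 itself had 18.2, 26.6, 26.6 and 16.2 CPM (counts scaled to the library size) in Ccna2-KO replicates 1 to 4, against 54.3, 25.9, 11.9 and 18.3 CPM in control replicates 1 to 4. The groups overlapped (log2 fold change -0.33 ± 0.41, SE; edgeR adjusted p = 0.673). Counts per transcript cannot separate the deleted exons from the rest, so every direction given rests on the labels. The labels also number the libraries, in a low set from 595 to 598 (3 controls and Ccna2-KO replicate 4) and a high set from 621 to 641 (control replicate 1 and the other 3 Ccna2-KO libraries). The labels do not explain these numbers. Because number set and genotype overlap in 6 of the 8 libraries, their effects are only partly separable, and values with the set as a term in the fit are given beside part of the results. Epcam, an epithelial adhesion molecule, was at 1928 ± 107 CPM in Ccna2-KO and 1884 ± 86.8 CPM in control libraries (SD, n = 4 each).

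The promoter windows of the changed members and of the Reg3 pair show the sequence in front of these genes, and the RefSeq table held a window for 9 of the 10 members (GRCm38.p6, 250 bases before to 50 after the annotated start). Printed 5′ to 3′ on the gene's strand are Mmp7 (chr9:7691840-7692139, plus strand), Ang4 (chr14:51773541-51773840, minus strand), Reg4 (chr3:98221906-98222205, plus strand), Reg3b (chr6:78370635-78370934, plus strand) and Reg3g (chr6:78468825-78469124, minus strand). Capitals mark matches, on either strand, to the core CTTTGA bound by TCF/LEF factors of the Wnt pathway, to the AP-1 motif TGANTCA or to the STAT motif TTCNNNGAA.
Mmp7: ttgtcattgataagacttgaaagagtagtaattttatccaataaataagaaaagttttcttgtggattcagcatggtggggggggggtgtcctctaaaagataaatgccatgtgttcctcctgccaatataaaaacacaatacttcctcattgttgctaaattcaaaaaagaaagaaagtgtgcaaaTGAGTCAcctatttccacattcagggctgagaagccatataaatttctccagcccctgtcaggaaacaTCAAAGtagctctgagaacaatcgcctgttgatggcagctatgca
Ang4: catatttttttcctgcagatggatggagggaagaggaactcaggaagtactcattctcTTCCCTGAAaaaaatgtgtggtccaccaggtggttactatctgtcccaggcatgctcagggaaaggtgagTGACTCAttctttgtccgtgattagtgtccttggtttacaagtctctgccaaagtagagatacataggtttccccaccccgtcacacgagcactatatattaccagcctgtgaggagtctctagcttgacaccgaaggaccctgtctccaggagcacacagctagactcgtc
Reg4: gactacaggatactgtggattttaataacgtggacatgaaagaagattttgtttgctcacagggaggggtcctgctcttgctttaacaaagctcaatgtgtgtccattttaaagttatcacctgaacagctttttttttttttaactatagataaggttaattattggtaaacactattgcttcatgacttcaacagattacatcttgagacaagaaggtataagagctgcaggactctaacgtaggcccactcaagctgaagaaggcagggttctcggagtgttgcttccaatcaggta
Reg3b: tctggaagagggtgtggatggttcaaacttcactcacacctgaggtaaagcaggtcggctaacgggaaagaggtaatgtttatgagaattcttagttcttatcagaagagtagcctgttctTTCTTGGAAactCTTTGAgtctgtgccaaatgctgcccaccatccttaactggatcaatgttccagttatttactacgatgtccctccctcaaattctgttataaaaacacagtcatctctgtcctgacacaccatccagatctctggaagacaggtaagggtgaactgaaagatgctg
Reg3g: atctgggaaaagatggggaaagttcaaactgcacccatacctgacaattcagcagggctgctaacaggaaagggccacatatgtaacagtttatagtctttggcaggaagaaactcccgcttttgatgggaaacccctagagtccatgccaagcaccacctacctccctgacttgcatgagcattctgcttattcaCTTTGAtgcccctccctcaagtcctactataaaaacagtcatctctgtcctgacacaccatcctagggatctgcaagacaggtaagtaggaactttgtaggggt
Positions count from the annotated start as 1, with -1 for the base before it, and give the leftmost base of the match. The TCF/LEF core was found in 3 of the 9 members with a window, in Reg3b at -117, in Reg3g at -54 and in Mmp7 at 6, where it lies on the opposite strand as TCAAAG. The same core is in 16% of 32851 RefSeq promoter windows of this length. The AP-1 motif was found in Mmp7 at -63 and in Ang4 at -122, and is in 7.81% of those windows. The STAT motif was found in Ang4 at -192 and in Reg3b at -129, and is in 8.30% of them. None of these 3 letter patterns overlapped another within a window. The windows of Reg4, Lyz1, Lyz2, Lypd8 and Lcn2 held none of them. Only these letter patterns were searched, so other forms of the same sites, in these windows or others, were not looked for. Mmp7 and Lypd8 have a further start in the table, and the later Mmp7 window holds the same TCF/LEF letters at -246.

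Of the 10 members, 9 passed the filter on low counts and Lcn2 did not. Of these 9, 4 had an adjusted p under 0.05 in edgeR's quasi-likelihood test, Pla2g2a, Mmp7, Ang4 and Reg4, and all were higher in Ccna2-KO libraries. In the same fit 12.1% of 15893 genes were called, 6.40% as higher and 5.71% as lower in Ccna2-KO. The median log2 fold change of the 9 members was 0.68, and that of all genes tested was -0.01. On the controls alone the filter would not have kept Pla2g2a or Lyz1, each with 9 counts in control replicate 4. The groups did not overlap in 2 of the 9, Pla2g2a and Mmp7, while 19.0% of all genes tested had groups that do not overlap. In bulk RNA, fewer or more cells of a type and less or more RNA per cell cannot be told apart.

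**Figure D1:**
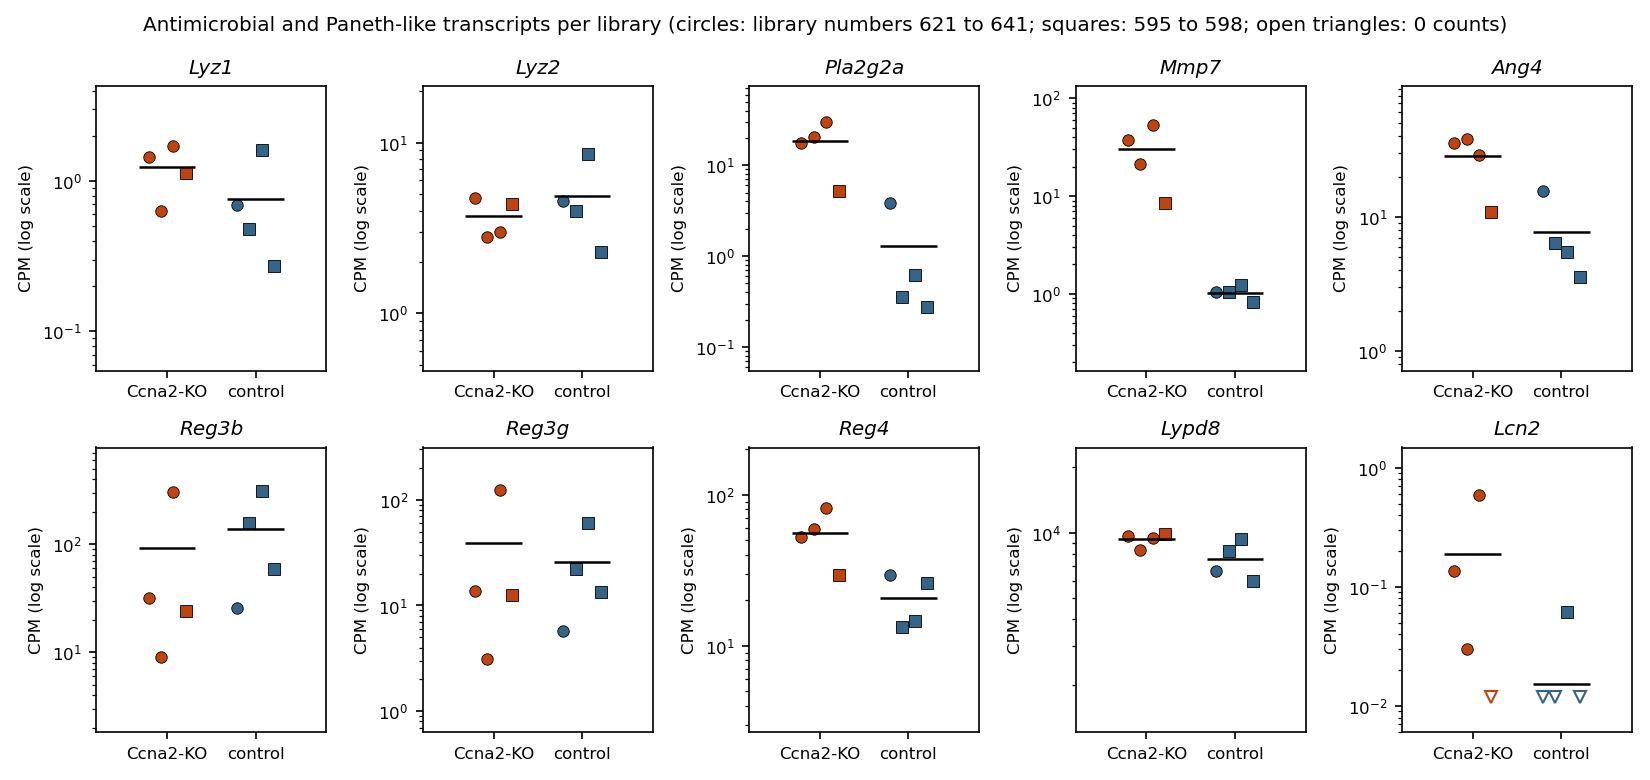
CPM of the 10 members in each library on log axes, with Ccna2-KO left of control, a line at each group mean, circles for library numbers 621 to 641, squares for 595 to 598 and open triangles for 0 counts. Mmp7 spans 8.47 to 53.2 CPM in Ccna2-KO and 0.818 to 1.23 CPM in control libraries, while the groups of Reg3b and Reg3g run through each other.

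**Figure D2:**
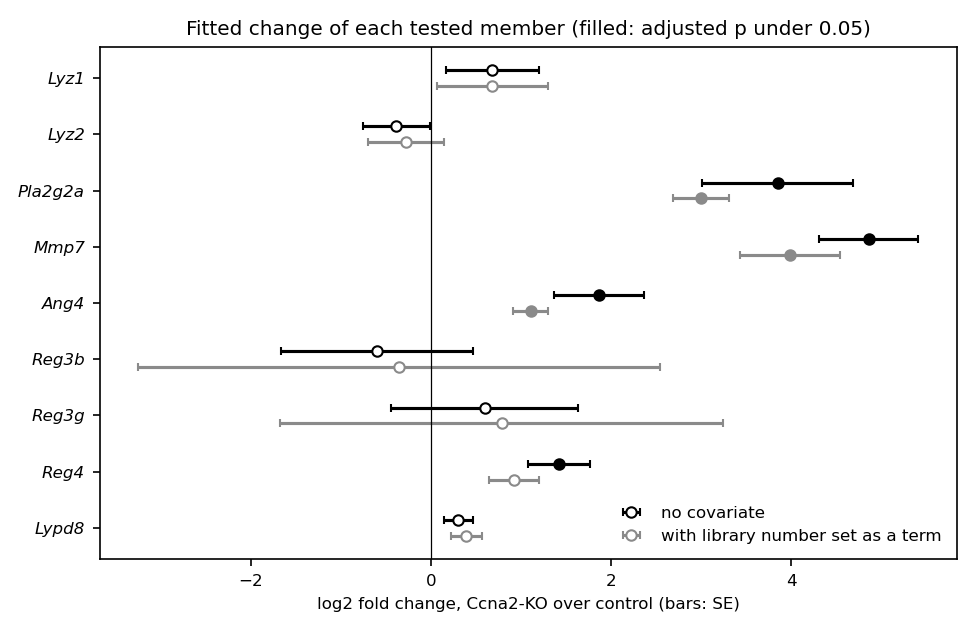
Log2 fold change (Ccna2-KO over control) of the 9 tested members, with bars of 1 SE, filled where the adjusted p is under 0.05, in black without a covariate and in grey with the library number set as a term. Mmp7 stands at 4.86 without the term and 3.99 with it, and Reg3b and Reg3g have the widest bars.

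Mmp7, or matrilysin, lies on chromosome 9 (7692090 to 7699585, plus strand, GRCm38) and was far higher in Ccna2-KO libraries. It had 37.6, 21.0, 53.2 and 8.47 CPM in Ccna2-KO replicates 1 to 4, against 1.05, 1.04, 1.23 and 0.818 CPM in control replicates 1 to 4. All Ccna2-KO libraries lay above all controls, which were nearly level with each other, while Ccna2-KO replicate 4 was well below the rest of its group. The mean was 30.1 ± 19.5 CPM in Ccna2-KO and 1.03 ± 0.169 CPM in control libraries (SD, n = 4 each), from 3739 and 123 counts. Mmp7 rose by 4.86 ± 0.55 on the log2 scale (SE; 29.1-fold; edgeR adjusted p = 0.00107). The call held in each of 18 alternative fits on summed counts, and with the library number set as a term the value was 3.99 ± 0.55 (edgeR adjusted p = 0.0035).

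Of the Mmp7 transcripts, NM_010810.5 held 94.9% of the counts and rose alone by 5.40 ± 0.74 on the log2 scale (edgeR over transcripts, adjusted p = 0.0270). The other transcript, NM_001319986.1, did not pass, at 1.91 ± 1.46 (edgeR over transcripts, adjusted p = 0.743). The antisense gene AV064505 shares 94 of the 31-base words of Mmp7 (9.06%), and the labels do not say whether the libraries keep strand. AV064505 was given 2 counts in Ccna2-KO replicate 3 and 0 in every other library.

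Pla2g2a encodes a secreted phospholipase A2 that kills bacteria by cutting their membrane lipids. It lies on chromosome 4 (138831857 to 138835189, plus strand, GRCm38). RefSeq lists it as a transcribed pseudogene and GENCODE as a polymorphic pseudogene, because the C57BL/6J reference strain carries a disrupted copy, and the labels name no strain for these mice. Its transcript had 17.7, 20.7, 29.8 and 5.26 CPM in Ccna2-KO replicates 1 to 4, against 3.87, 0.359, 0.615 and 0.273 CPM in control replicates 1 to 4. The groups did not overlap, although control replicate 1 stood well above the other controls and Ccna2-KO replicate 4 well below its group. The mean was 18.4 ± 10.1 CPM in Ccna2-KO and 1.28 ± 1.73 CPM in control libraries (SD, n = 4 each).

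Pla2g2a rose by 3.85 ± 0.84 on the log2 scale (SE; 14.4-fold; edgeR adjusted p = 0.0181), and by 2.998 ± 0.31 with the number set as a term (edgeR adjusted p = 0.000554). The filter on low counts would not have kept it on the controls alone, so that it was tested depended on the Ccna2-KO libraries too. Within the high number set the Ccna2-KO mean was 5.87 times the single control, and within the low set the single Ccna2-KO library was 12.6 times the control mean. The call was lost without control replicate 3 (log2 fold change 3.61, edgeR adjusted p = 0.0551), without Ccna2-KO replicate 3 (3.51, edgeR adjusted p = 0.056), with no filter on low counts (edgeR adjusted p = 0.0703) and over single transcripts (edgeR adjusted p = 0.147). Without control replicate 1 the log2 fold change was 5.45.

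Ang4, angiogenin 4, is a secreted ribonuclease with microbicidal activity, made by Paneth and goblet cells in the mouse. It lies on chromosome 14 (51763892 to 51773590, minus strand, GRCm38). Ang4 had 35.3, 37.8, 28.9 and 10.9 CPM in Ccna2-KO replicates 1 to 4, against 15.6, 6.38, 5.47 and 3.57 CPM in control replicates 1 to 4. The groups overlapped through Ccna2-KO replicate 4 and control replicate 1, each standing in the number set held mostly by the other genotype. Ang4 averaged 28.2 ± 12.1 CPM in Ccna2-KO and 7.76 ± 5.36 CPM in control libraries (SD, n = 4 each) and rose by 1.87 ± 0.50 on the log2 scale (SE; 3.65-fold; edgeR adjusted p = 0.0392). With the number set as a term the rise was 1.11 ± 0.19 (edgeR adjusted p = 0.00516), and the Ccna2-KO mean was 2.18 times the control mean in the high set and 2.12 times in the low set.

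The Ang4 call was lost in 6 of the 8 fits that leave out 1 library. These were the fits without control replicate 2 (log2 fold change 1.78), 3 (1.73) or 4 (1.62) and without Ccna2-KO replicate 1 (1.75), 2 (1.70) or 3 (1.86), with edgeR adjusted p between 0.0914 and 0.105. It was also lost with no filter (edgeR adjusted p = 0.0975) and over single transcripts (edgeR adjusted p = 0.211). Ang4 shares 94 of its 31-base words (13.8%) with Ang, Ang2, Ang5 or Ang6, of which Ang2, Ang5 and Ang6 had 0 counts in all libraries. Ang itself, the family member most widely expressed in mouse tissues, had a log2 fold change of 0.07 ± 0.16 (edgeR adjusted p = 0.832).

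The lysozymes, which cut the peptidoglycan of bacterial walls, were near the detection limit and neither passed the test. Lyz1, the Paneth cell lysozyme, had 1.45, 0.630, 1.72 and 1.14 CPM in Ccna2-KO replicates 1 to 4, against 0.697, 0.479, 1.60 and 0.273 CPM in control replicates 1 to 4. The groups overlapped, mainly through control replicate 3, and the log2 fold change was 0.68 ± 0.52 (edgeR adjusted p = 0.455), from 148 and 93 counts. Lyz2, the lysozyme of macrophages and other myeloid cells, had 4.72, 2.79, 2.996 and 4.39 CPM in Ccna2-KO replicates 1 to 4, against 4.53, 3.99, 8.58 and 2.30 CPM in control replicates 1 to 4. Here too the groups overlapped, and control replicate 3 was the highest of all libraries. The log2 fold change of Lyz2 was -0.38 ± 0.38 (edgeR adjusted p = 0.575) and became 0.04 without control replicate 3.

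Lyz1 and Lyz2 lie side by side on chromosome 10 (Lyz2 at 117277541 to 117282272 and Lyz1 at 117287795 to 117292868, both minus strand, GRCm38), 5522 bases apart, and their transcripts are 92.0% identical. The share of Lyz1 in the counts of the pair was 23.5%, 18.4%, 36.4% and 20.6% in Ccna2-KO replicates 1 to 4, against 13.3%, 10.7%, 15.7% and 10.6% in control replicates 1 to 4. All Ccna2-KO shares lay above all control shares. The mean was 24.7% ± 8.07 in Ccna2-KO and 12.6% ± 2.44 in control libraries (SD, n = 4 each), and the ratio of Lyz1 to Lyz2 was 2.20 times as high in Ccna2-KO (a difference of 1.14 on the log2 scale; exact two-sided permutation p = 0.0286, the smallest that 4 against 4 can give). Each share rests on only 85 to 331 counts, so that its 95% Wilson interval ran, for example, from 14.7% to 28.0% in Ccna2-KO replicate 4 and from 12.2% to 20.02% in control replicate 3. These intervals cover counting error only, and 422 of the 31-base words are common to both transcripts (34.2% of Lyz1), so reads could be split between them. Without control replicate 2 or 4 the difference was 1.06 and the exact permutation p was 0.0571.

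Reg3b and Reg3g, C-type lectins that bind bacterial surfaces, varied more between libraries of one group than between the groups. Reg3b lies on chromosome 6 (78370885 to 78373466, plus strand) and Reg3g 92802 bases further along (78466269 to 78468874, minus strand, GRCm38). Reg3b had 31.6, 9.05, 301 and 23.8 CPM in Ccna2-KO replicates 1 to 4, against 25.5, 156, 313 and 58.3 CPM in control replicates 1 to 4. Replicate 3 was the highest in both groups, the other Ccna2-KO libraries were low, and the range spanned 33.2-fold within Ccna2-KO and 12.3-fold within control libraries. The log2 fold change of Reg3b was -0.60 ± 1.07 (edgeR adjusted p = 0.781), was 0.19 without control replicate 3, and was -2.68 without Ccna2-KO replicate 3 (edgeR adjusted p = 0.103).

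Reg3g had 13.8, 3.15, 125 and 12.5 CPM in Ccna2-KO replicates 1 to 4, against 5.78, 22.1, 60.9 and 13.5 CPM in control replicates 1 to 4. Its order over the libraries was close to that of Reg3b, with Ccna2-KO replicate 3 again the highest of its group and Ccna2-KO replicate 2 the lowest of all. The log2 fold change was 0.59 ± 1.04 (edgeR adjusted p = 0.775) and was -1.38 without Ccna2-KO replicate 3 (edgeR adjusted p = 0.369). With these errors a change of over 2-fold in either direction lay within 2 SE of both estimates, -2.73 to 1.54 for Reg3b and -1.48 to 2.67 for Reg3g on the log2 scale.

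The balance between the Reg3 lectins was far steadier than their levels and differed between the groups. Reg3g made up 30.4%, 25.8%, 29.3% and 34.5% of the counts of the pair in Ccna2-KO replicates 1 to 4, against 18.5%, 12.4%, 16.3% and 18.8% in control replicates 1 to 4. Every Ccna2-KO library lay above every control, also where the level of both genes was high, as in replicate 3 of each group. The mean share was 30.0% ± 3.59 in Ccna2-KO and 16.5% ± 2.94 in control libraries (SD, n = 4 each), and the ratio of Reg3g to Reg3b was 2.19 times as high in Ccna2-KO. The difference was 1.13 on the log2 scale (exact two-sided permutation p = 0.0286, the smallest that 4 against 4 can give) and lay between 0.98 and 1.23 with any 1 library left out. The shares rest on 407 to 13647 counts per library, and only 5 of the 31-base words (0.675% of Reg3g) are common to both transcripts, which are 68.6% identical. The Ccna2-KO share was also the higher within each number set, 28.5% in Ccna2-KO against 18.5% in control in the high set, and 34.5% in Ccna2-KO against 15.8% in control in the low set. Ratios within 2 gene pairs were tested, and the Benjamini-Hochberg adjusted p of both is 0.0286.

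**Figure D3:**
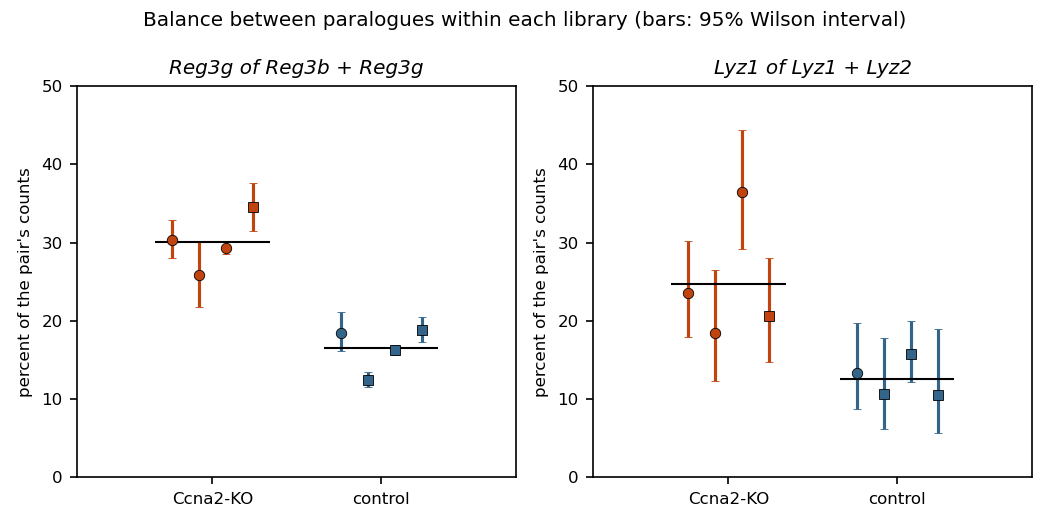
Share of Reg3g in the counts of Reg3b and Reg3g (left) and of Lyz1 in those of Lyz1 and Lyz2 (right), in percent, per library with 95% Wilson intervals, Ccna2-KO left of control, a line at each group mean, and circles and squares for the high and low number sets. Ccna2-KO libraries lie between 25.8% and 34.5% for Reg3g and controls between 12.4% and 18.8%, with wider intervals for the lysozymes.

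Reg4, a C-type lectin that marks the deep crypt secretory cells of the colon, lies on chromosome 3 (98222138 to 98236748, plus strand, GRCm38). It had 52.3, 59.3, 82.0 and 29.3 CPM in Ccna2-KO replicates 1 to 4, against 29.3, 13.4, 14.7 and 25.8 CPM in control replicates 1 to 4. Ccna2-KO replicate 4 and control replicate 1 met at the same level, and the other libraries kept their groups apart. Reg4 averaged 55.7 ± 21.7 CPM in Ccna2-KO and 20.8 ± 7.98 CPM in control libraries (SD, n = 4 each) and rose by 1.42 ± 0.34 on the log2 scale (SE; 2.68-fold; edgeR adjusted p = 0.027).

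The Reg4 call was lost in 11 of 20 alternatives. With the number set as a term the log2 fold change was 0.92 ± 0.28 (edgeR adjusted p = 0.0523), and with the replicate number as a block the edgeR adjusted p was 0.0864. Further losses came with no filter (edgeR adjusted p = 0.0502), without control replicate 2 (1.26), 3 (1.28) or 4 (1.54), and without Ccna2-KO replicate 1 (1.46), 2 (1.39) or 3 (1.18), where the edgeR adjusted p ran from 0.0515 to 0.0787. Both transcripts of Reg4 were higher by a like amount, 1.43 ± 0.38 for NM_026328.2 and 1.40 ± 0.65 for XM_017319697.1, and neither passed over single transcripts (edgeR adjusted p = 0.159 and 0.478).

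Lypd8, a membrane-anchored protein of colonocytes that binds the flagella of Gram-negative bacteria, was by far the most abundant member and did not pass the test. It lies on chromosome 11 (58379032 to 58390541, plus strand, GRCm38). It had 9633, 8362, 9509 and 9876 CPM in Ccna2-KO replicates 1 to 4, against 6672, 8227, 9387 and 6033 CPM in control replicates 1 to 4. The groups overlapped through control replicate 3, and the Ccna2-KO libraries were the more even. The mean was 9345 ± 673 CPM in Ccna2-KO and 7579 ± 1517 CPM in control libraries (SD, n = 4 each). Its log2 fold change was 0.30 ± 0.16 (edgeR adjusted p = 0.27), with 2 SE reaching from -0.02 to 0.62. Of its transcripts, NM_001083884.1 held 87.9% of the counts, and NM_027339.2, with 6.27%, had a log2 fold change of 0.77 ± 0.18 (edgeR over transcripts, adjusted p = 0.115).

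Lcn2, lipocalin 2, withholds iron from bacteria by binding the siderophore enterobactin and is a common marker of gut inflammation. It lies on chromosome 2 (32384637 to 32387739, minus strand, GRCm38) and was almost absent from these libraries. It was counted 4, 1, 19 and 0 times in Ccna2-KO replicates 1 to 4, against 0, 0, 2 and 0 times in control replicates 1 to 4. Most of these counts lay in replicate 3 of each group, the libraries with the highest Reg3b and Reg3g. Over the groups there were 24 counts in Ccna2-KO and 2 in control libraries, a ratio of 11.8 with a 95% counting interval from 2.93 to 103. Without Ccna2-KO replicate 3 there were 5 counts in Ccna2-KO and 2 in control libraries, a ratio of 3.35 with an interval from 0.549 to 35.2. In a fit with no filter its log2 fold change was 3.27 ± 1.33 (edgeR adjusted p = 0.201).

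Divided by transcript length, the levels of the members span several orders of magnitude. Lypd8 averaged 8550 CPM per kilobase in Ccna2-KO and 6935 in control libraries. Reg3b followed with 117 in Ccna2-KO and 176 in control libraries, then Reg4 with 54.6 and 20.4, Reg3g with 50.1 and 33.2, and Ang4 with 39.8 and 10.9 CPM per kilobase in Ccna2-KO and control libraries. The ranges of Reg3b, Reg3g, Reg4 and Ang4 over the Ccna2-KO libraries overlap, so their order is not settled. Mmp7 averaged 28.2 CPM per kilobase in Ccna2-KO and 0.967 in control libraries, and Pla2g2a 23.4 in Ccna2-KO and 1.63 in control libraries. Both stood near Ang4 in Ccna2-KO and near the lysozymes in control libraries, where Lyz2 averaged 3.69 and Lyz1 0.603 CPM per kilobase. In Ccna2-KO libraries Lyz2 averaged 2.83 and Lyz1 0.976 CPM per kilobase. Lcn2 was the lowest, at 0.207 CPM per kilobase in Ccna2-KO and 0.0168 in control libraries.

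Within each number set, every Ccna2-KO library lay above every control for Pla2g2a, Mmp7, Ang4, Reg4 and Lypd8. Each set holds a single library of one genotype, and no test was run within the sets. The share of all genes with this order was not determined, so the order is not read as a result about these members. The Ccna2-KO mean of Mmp7 was 35.7 times the control in the high set and 8.24 times in the low set. That of Reg4 was 2.20 times the control in the high set and 1.63 times in the low set, and that of Lypd8 1.37 times in the high set and 1.25 times in the low set. Reg3b and Reg3g were lower in Ccna2-KO replicate 4 than in all 3 controls of the low set and overlapped in the high set.

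Alpha-defensins, the main antimicrobial peptides of Paneth cells, were detected almost only in Ccna2-KO libraries. The list of Paneth defensins and lectins held 18 names, of which 15 were in the table and 4 passed the filter on low counts, Defa24, Itln1, Mptx1 and Clps. Defa24, with 0 counts in every control, passed it only through the Ccna2-KO libraries, so no test of it is given. Of the other 3, Itln1 rose, Mptx1 fell and Clps did not pass (1.15 ± 0.54; edgeR adjusted p = 0.218). The filter would not have kept Itln1 on the controls alone (0.303 CPM in control replicate 4). Nor would it have kept Mptx1 on the Ccna2-KO libraries alone (0.0624 CPM in Ccna2-KO replicate 3). Defa24, an alpha-defensin precursor of the kind cut by Mmp7, had 250, 74, 185 and 50 counts in Ccna2-KO replicates 1 to 4 and 0 in every control. Against a floor of 3 counts over the control group it was at least 184-fold higher in Ccna2-KO libraries. Its level in Ccna2-KO libraries was low, 8.42, 2.22, 5.77 and 1.96 CPM. Alpha-defensin genes are near-identical, so counts for single members are uncertain. A sum over all 22 alpha-defensin symbols, made after the values were seen, came to 347, 89, 262 and 63 counts in Ccna2-KO replicates 1 to 4, against 0, 1, 0 and 0 in control replicates 1 to 4. That is 761 counts in Ccna2-KO libraries and 1 in control libraries, with 14 symbols detected in Ccna2-KO and 1 in control libraries. Ccna2-KO replicates 1 and 3, the highest for Mmp7, were also the highest for this sum. Defa26 and Mptx2 had 0 counts in all libraries.

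Itln1, a lectin that binds microbial sugars, had 4.38, 2.76, 2.37 and 0.784 CPM in Ccna2-KO replicates 1 to 4, against 0.592, 0.519, 0.431 and 0.303 CPM in control replicates 1 to 4. The groups did not overlap, and it rose by 2.48 ± 0.49 on the log2 scale (edgeR adjusted p = 0.0115). Mptx1, a mucosal pentraxin, had 0.842, 0.330, 0.0624 and 0.863 CPM in Ccna2-KO replicates 1 to 4, against 216, 1.44, 16.3 and 0.636 CPM in control replicates 1 to 4. It fell by 6.84 on the log2 scale (SE 1.87; edgeR adjusted p = 0.043), a value carried largely by control replicate 1, without which it was -3.58 and did not pass. The groups of Mptx1 overlapped, and the call was lost in 9 of the 16 alternatives that gave it a value.

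Of 36 other epithelial antimicrobial genes, 35 were in the table and 19 were tested, of which 2 rose and 0 fell, with a median log2 fold change of 0.12. Over all genes tested 12.1% were called, 6.40% as higher, and with the replicate block 0 genes of this list were called. Retnlb, a goblet cell product that damages bacterial membranes, had 85.8, 153, 219 and 32.002 CPM in Ccna2-KO replicates 1 to 4, against 48.6, 12.5, 11.8 and 12.9 CPM in control replicates 1 to 4. The groups overlapped through control replicate 1 and Ccna2-KO replicate 4, as for Ang4 and Reg4. Retnlb rose by 2.51 ± 0.65 on the log2 scale (edgeR adjusted p = 0.0362), with 1.51 when the number set was a term (edgeR adjusted p = 0.0128). The call was lost in 8 of 18 alternatives, with no filter, the replicate block, or without control replicate 2, 3 or 4 or Ccna2-KO replicate 1, 2 or 3. With 1 library left out its log2 fold change ran from 2.08 to 3.31. Sprr2a1, a small proline-rich protein with activity against Gram-positive bacteria, rose by 0.80 ± 0.16 (edgeR adjusted p = 0.0139), a call lost with the replicate number as a block. Zg16, a lectin-like protein of mucus that binds Gram-positive bacteria, was at 0.12 ± 0.38 (edgeR adjusted p = 0.883). S100a8 and S100a9, the calprotectin subunits of neutrophils and inflamed epithelium, stayed below the filter, with 16 and 15 counts over the Ccna2-KO group and 7 and 8 over the control group.

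Among regulators of secretory cell fate, few genes passed in the main fit, and these were lower in Ccna2-KO libraries. Of 20 genes of Paneth and deep crypt fate, 19 were tested, 0 rose and 3 fell, with a median log2 fold change of -0.23. Over all genes tested 12.1% were called, and 5.71% were called lower. With the number set as a term 9 fell, and with 1 library left out between 1 and 4 fell and at most 1 rose. Dll1, a Notch ligand of secretory progenitors, averaged 3.10 ± 0.43 CPM in Ccna2-KO and 9.79 ± 1.04 CPM in control libraries (SD, n = 4 each) and fell by 1.66 on the log2 scale (SE 0.16; edgeR adjusted p = 0.000536). Atoh1, the transcription factor that sets the secretory lineage, had 31, 30.2, 31.99 and 19.3 CPM in Ccna2-KO replicates 1 to 4, against 56.4, 39.8, 46.6 and 38.8 CPM in control replicates 1 to 4. The groups of Atoh1 did not overlap, and it fell by 0.69 (SE 0.18; edgeR adjusted p = 0.0391), a call lost in 9 of 18 alternatives. These were upper quartile scaling, library totals alone, and leaving out any single library other than control replicate 1 (log2 fold change -0.76 to -0.55). Xbp1, a transcription factor of the secretory stress response that Paneth cells need, fell by 0.46 (SE 0.10; edgeR adjusted p = 0.0195), a call lost with the replicate block and without control replicate 4 or Ccna2-KO replicate 1, 2 or 3 (log2 fold change -0.52 to -0.41 with 1 library left out). Kit, a marker of deep crypt secretory cells, was at -0.72 ± 0.25 (edgeR adjusted p = 0.0951). Sox9, required for Paneth cells in the mouse small intestine, was at -0.23 ± 0.19 (edgeR adjusted p = 0.493), and Spdef, a factor for goblet and Paneth maturation, at -0.45 ± 0.27 (edgeR adjusted p = 0.325). Cd24a, Ephb2, Ephb3, Cd44, Tcf7l2 and Ern2 of the same list had log2 fold changes above zero, from 0.12 to 0.43, and did not pass. All other tested genes of the list lay below zero.

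**Figure D4:**
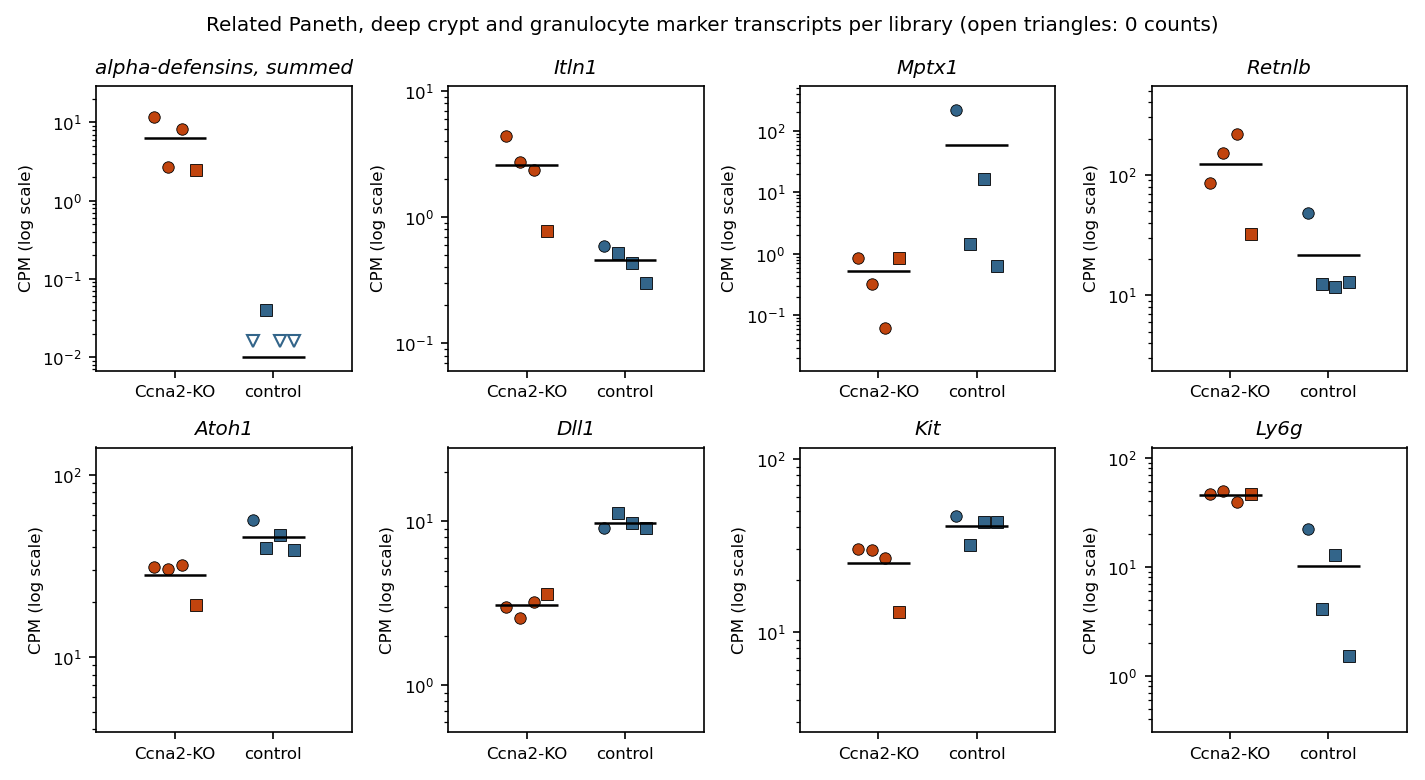
CPM per library on log axes for the summed alpha-defensins, Itln1, Mptx1, Retnlb, Atoh1, Dll1, Kit and Ly6g, with Ccna2-KO left of control, a line at each group mean, and open triangles for 0 counts. The summed alpha-defensins lie between 2.47 and 11.7 CPM in Ccna2-KO libraries, while 3 of the 4 controls have none.

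For the pathways known to induce Reg3b, Reg3g and Lcn2, the share of genes called was close to that over all genes. Those that passed in the main fit were lower in Ccna2-KO libraries. Of 32 genes of interleukin 22, interleukin 17 and MyD88 signalling, 25 were tested, 0 rose and 3 fell, with a median log2 fold change of -0.20, where 12.1% of all genes were called and 5.71% were called lower. With the number set as a term 2 rose and 2 fell, and between 1 and 8 fell with 1 library left out. The interleukin 17 receptor subunit Il17re fell by 0.63 (SE 0.13; edgeR adjusted p = 0.0134), the bacterial lipopeptide receptor Tlr2 by 1.11 (SE 0.23; edgeR adjusted p = 0.0155) and the muramyl dipeptide sensor Nod2 by 0.92 (SE 0.26; edgeR adjusted p = 0.0488). The Tlr2 call was lost without Ccna2-KO replicate 2 or 3, the Nod2 call held in 5 of 18 alternatives, and the Il17re call held in 18 of 18. Il22 was counted 3 times over the Ccna2-KO group and 1 time over the control group. Its receptor Il22ra1 was at 0.05 ± 0.19, the signal transducer Stat3 at -0.05 ± 0.20, the feedback inhibitor Socs3 at -0.21 ± 0.32 and the NF-kappa-B cofactor Nfkbiz at 0.07 ± 0.40 on the log2 scale (edgeR adjusted p = 0.899, 0.908, 0.737 and 0.936). Of 12 goblet cell genes 1 rose, the fucosyltransferase Fut2 (0.57 ± 0.14; edgeR adjusted p = 0.0272), and with the number set as a term 1 rose and 2 fell. The Fut2 call was lost with the replicate block and without control replicate 3 or 4 or Ccna2-KO replicate 1, 3 or 4 (log2 fold change 0.46 to 0.64 with 1 library left out). Muc2, the main mucin of the colon, was at -0.13 ± 0.29 (edgeR adjusted p = 0.834).

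Cells other than epithelium can also make some of these products, and their markers moved in different directions. In the list for T cells and lymphocytes within the epithelium, 15 of 15 tested genes fell, where 5.71% of all genes were called lower. Their median log2 fold change was -2.63. All 16 genes of the list summed to 15.7 to 32.7 CPM in Ccna2-KO and 49.7 to 225 CPM in control libraries. With the number set as a term 11 fell, with a median of -1.89, where 1415 of all 15893 genes tested were called lower. With the replicate number as a block 6 fell, where 368 of the 15893 were called lower. The 3 with the smallest adjusted p were the chemokine Ccl5, which fell by 3.40 (SE 0.42; edgeR adjusted p = 0.0016), Cd2 and Cd3g. Cd2 passed the filter on low counts only through the control libraries, with 8 counts over the Ccna2-KO group and 64 over the control group. Its place among the 3 is thus not read as a result, and the 15 tested genes include it. They also include Cd3e and Cd247, which the filter would not have kept on the Ccna2-KO libraries alone (0.300 and 0.180 CPM in Ccna2-KO replicate 2). Ptprc, carried by all leukocytes, had 5.09, 2.19, 3.81 and 5.45 CPM in Ccna2-KO replicates 1 to 4, against 7.07, 38.7, 37.2 and 18.8 CPM in control replicates 1 to 4, and fell by 2.63 (SE 0.51; edgeR adjusted p = 0.0114).

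Of 12 tested macrophage genes, a list that includes Lyz2, 2 rose and 1 fell (12.1% of all genes were called), 0 rose and 1 fell with the number set as a term, and 0 were called with the replicate block. All 15 genes of the list, also those below the filter, summed to 25.4 to 32.2 CPM in Ccna2-KO and 26.5 to 41.9 CPM in control libraries. The genes called were Cd68 (1.13 ± 0.28; edgeR adjusted p = 0.0313) and Mrc1 (1.10 ± 0.31; edgeR adjusted p = 0.0461), which rose, and Fcer1g, which fell by 1.78 (SE 0.48; edgeR adjusted p = 0.0409), while Csf1r was at -0.07 ± 0.42 (edgeR adjusted p = 0.941). The calls held in 11 of 18 alternatives for Cd68, 7 for Mrc1 and 10 for Fcer1g. On the Ccna2-KO libraries alone the filter would not have kept Fcer1g (0.300 CPM in Ccna2-KO replicate 2). Of 13 neutrophil genes 4 were tested and 0 passed in edgeR, with 2 at an unadjusted p under 0.05, 2 called by DESeq2 and 1 by limma voom. Elane and Ngp had 0 counts in all libraries, and the summed level was 42.7 to 51.8 CPM in Ccna2-KO and 3.60 to 23.7 CPM in control libraries. Most of that sum was Ly6g, chosen after its values were seen, at 46.6, 49.7, 39.6 and 47.0 CPM in Ccna2-KO replicates 1 to 4, against 22.4, 4.07, 12.8 and 1.51 CPM in control replicates 1 to 4 (2.16 ± 0.64; edgeR adjusted p = 0.057). Ltf was at 1.74 ± 0.52, Csf3r at 0.27 ± 0.43 and Cxcr2 at 0.14 ± 0.25 (edgeR adjusted p = 0.0610, 0.753 and 0.793). Ltf, with 24 counts over the control group, passed the filter mainly through the Ccna2-KO libraries, so its value is not read as a result. Mpo, below the filter, had 15 counts over the Ccna2-KO group and 24 over the control group. The sum thus follows Ly6g and is not read as a level of neutrophils.

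Of the 7 genes of B and plasma cells 2 were tested and 0 passed in edgeR, DESeq2, limma voom or at an unadjusted p under 0.05, with 1.29 to 2.19 CPM in sum in Ccna2-KO and 1.27 to 2.43 CPM in control libraries. Among 7 tested stromal and vessel genes, the muscle filament gene Des rose (2.01 ± 0.36; edgeR adjusted p = 0.00795) and the endothelial gene Pecam1 fell by 0.94 (SE 0.24; edgeR adjusted p = 0.0315). Des had 43 counts over the control group, and the filter would not have kept it on the controls alone. Over all genes tested 12.1% were called, 6.40% as higher and 5.71% as lower. All 12 genes of the list summed to 12.6 to 33.6 CPM in Ccna2-KO and 9.69 to 18.1 CPM in control libraries. The Pecam1 call was lost with the replicate block and without control replicate 3 or any 1 of the Ccna2-KO libraries (log2 fold change -1.04 to -0.75 with 1 library left out). Of 14 genes of colonic epithelium 0 passed in edgeR, with 5 at an unadjusted p under 0.05, 2 called by DESeq2, 0 by limma voom and 2, both higher, with the number set as a term, and Epcam was at 0.03 ± 0.10 (edgeR adjusted p = 0.882). The part of these other cell types in the levels of the 10 members was not tested.

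The genes whose log2 CPM ran most like each member over the 8 libraries were found by Pearson correlation with up to 11051 candidates. The points share their libraries and the genotype difference, so the values describe likeness only. Mmp7 was most like Tmem266 (r = 0.998) and Idh1 (0.988), Pla2g2a like Hdac3 (0.997) and Fam111a (0.997), Ang4 like Ap3m1 (0.989) and Spata6 (0.988), and Reg4 like Trim47 (0.986) and Fam57a (0.985). Lyz1 was most like Tns2 (0.921) and Anpep (0.915), Lyz2 like C4b (0.948) and Saa1 (0.884), and Lypd8 like Slc47a1 (0.975) and Mpi (0.964). Reg3b was most like Tbc1d30 (0.967) and then Reg3g (0.936), and Reg3g like Tnfsf13b (0.940) and then Reg3b.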

How the data were processed

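The deposited table gives estimated counts per RefSeq transcript for each library. Per the submitters' processing notes, the authors used kallisto (version not given in the sources) and the mouse build GRCm38 (mm10). Kallisto divides reads that match several transcripts between them, so near-identical genes are uncertain. Library preparation followed standard Illumina protocols, per the labels. Of 107193 transcripts, 687 carried no symbol and held 3.19% to 5.51% of the counts; these rows entered neither library sizes nor tests. The 4 Ccna2-KO and 4 control libraries were grouped by their titles, and 0 sample columns were left unused.

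These were added up for each symbol and rounded, which left 25960180 to 33028486 per library. No pair of libraries agreed within sampling noise. Genes were tested in R 4.3.3 with edgeR 4.0.16, using its filter on low counts, TMM scaling, robust estimates and a quasi-likelihood F test for genotype on all 8 libraries without covariates. Benjamini-Hochberg adjustment covered the 15893 genes that the filter kept, 0.05 was the threshold, and standard errors are the log2 fold change over the root of F. CPM use TMM-scaled library sizes. The code was tested on simulated counts. Shares within a gene pair were compared by exact permutation (two-sided) of log2 ratios with 0.5 added to each count (SciPy 1.17.1). Levels per kilobase use the length of each member's main transcript, and shared 31-base words (the default word length of kallisto) were found in GENCODE M21 transcripts. Likeness used log2 CPM with a prior count of 2, among genes with a mean of at least 1.

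The named genes are Ccna2, the members, fixed genes of 11 written lists, the 3 genes of each list with the smallest adjusted p among those that pass, and the 2 genes most like each member. Members and lists were chosen with earlier results of these data known. Alternatives were other scaling, no filter or a stricter one (1 CPM throughout a group), limma 3.58.1 voom, DESeq2 1.42.0, non-robust estimates, the replicate number as a block, the library number set as a term, single transcripts, a pseudocount of 5 for the shares, and leaving out each library. List counts under these settings, the alpha-defensin sum and the values within number sets were added after seeing the data. Coordinates are from RefSeq on GRCm38.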

Additional observations from a re-analysis of the deposited data

Results flagged for a closer look

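In groups of 4 libraries, 4 values of the members stood far apart from the other 3, by a gap to the nearest that passed Dixon's 95% critical value. The critical value would mark about 1 in 20 groups of normally spread values, and 20 groups (10 members in each genotype) were looked at. The shares of Lyz1 and Reg3g in their pairs were looked at too in each genotype, and no share passed it. The values were CPM without logs, which are skewed, so the rate by chance is not known here. Reg3b in Ccna2-KO replicate 3 had 301 CPM, where the next Ccna2-KO library had 31.6 CPM. Reg3g in the same library had 125 CPM, and the next had 13.8 CPM. Pla2g2a in control replicate 1 had 3.87 CPM, and the next control had 0.615 CPM. Lcn2 in control replicate 3 had 0.0615 CPM, which is 2 counts, and the other controls had 0, so that any count there would have passed.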

How the results depend on the processing

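Over all genes, 1924 were called. The count was 2949 with DESeq2, 2892 with the library number set as a term, 987 with the replicate number as a block, and between 972 and 4627 with 1 library left out (the lowest without Ccna2-KO replicate 3, the highest without control replicate 1). Of the members, 4 were called. With no filter on low counts 1 was called, and with 1 library left out between 1 and 4 were called. Mmp7 alone passed without control replicate 3 or Ccna2-KO replicate 3. The number set and the block each left 3.

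Of 176 values of the members under alternatives, 147 kept direction and side of the threshold (for Lcn2, stayed within its counting interval), 24 kept direction and lost the call, and 5 reversed. Reg3g reversed with limma voom (-0.17), the replicate block (-0.023) and without Ccna2-KO replicate 3 (-1.38). Lyz2 (0.044) and Reg3b (0.19) reversed without control replicate 3. With 1 library left out, Reg3g ran from -1.38 to 1.48, Reg3b from -2.68 to 0.19 and Lyz2 from -0.62 to 0.044. The cause was not tested. Lyz1 gave no value with the filter of 1 CPM.

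The numbers do not pair the libraries: deviations of same-numbered libraries correlated between -0.46 and 0.17. With the replicate block, by sign flips over 4 pairs, the exact permutation p of the shares was 0.125, the smallest that 4 pairs allow, with differences of 1.14 for Lyz1 and 1.13 for Reg3g. Leaving out 1 library gave 0.86 to 1.30 for Lyz1 and 0.98 to 1.23 for Reg3g. With the block 6 of the 15 T cell genes were called, and with 1 library left out 11 to 15 were. The lysozymes and Lcn2 rest on few counts.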
